A study of Arabidopsis thaliana with 6 samples.

Results

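The genes described here encode Arabidopsis chromatin regulators, namely nucleosome remodellers, Polycomb proteins, histone methyltransferases, demethylases and acetyltransferases, DNA methylation factors and histone chaperones. They are 49 loci of 27432 protein-coding genes on the 5 nuclear chromosomes, taken by locus identifier from a fixed list, and all 49 were found in the gene table. Binding of AtDEK3, a chromatin protein with a DEK domain, was measured by chromatin immunoprecipitation and sequencing (ChIP-seq). Seedlings of ecotype Col-0 that overexpress AtDEK3 with a cyan fluorescent protein (CFP) tag were raised on soil until day 14 with 16 h of light and 8 h of darkness. The CFP tag was precipitated with an antibody against green fluorescent protein. All plants carried the transgene, and the promoter that drives it is not given in the labels. Each of 3 independent overexpressor lines, OE3-1, OE9-1 and OE17-4, gave 1 ChIP library and 1 list of peaks, and the 3 matching inputs were not analysed here. A gene was counted as carrying a peak where at least 1 bp of the peak lay in its span.

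Chromatin regulators set how DNA is packed and read. Remodellers use ATP to move, evict or exchange nucleosomes, and histone chaperones hand histones to DNA or take them off. Polycomb repressive complex 2 (PRC2) places a silencing methyl mark on histone H3, and other SET-domain enzymes write marks of active genes, of heterochromatin or of replication. DNA methylation in plants is written by several methyltransferases and erased by DNA glycosylases, and it silences transposons and some genes. In seedlings these systems keep embryonic and floral genes silent and set the time of flowering. DEK proteins bind DNA and histones, and in animals DEK acts as a histone chaperone.

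The lists held 5332, 3733 and 3426 peaks in OE3-1, OE9-1 and OE17-4, with 1235876, 814853 and 549029 reads in peaks. Total depth is unknown, so read numbers are compared within a line only. Counts below are read against each line's own background. A set of 18 rows stood apart from the rest, with the region written with 3 dots in place of a pair. Of these, 8 lay in 4 of the chromatin genes, CMT3, SDG8, MBD9 and RLT1. They included both OE3-1 rows with a false discovery rate (FDR) above 5%, whereas the other rows of that list ended at 4.99%. They also included both rows of all lists that lack a Wilcoxon filter p-value. Unless stated, counts of genes by line, by number of lines and by class that change without these rows are given both ways. Counts of peaks, the mean per line, and counts with a wider gene span or under other limits include them.

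Of the 49 chromatin genes, 20 carried a peak in OE3-1, 13 in OE17-4 and 4 in OE9-1. The mean was 12.3 ± 8.02 genes per line (SD, n = 3). In OE3-1 the share was 40.8% (exact 95% Clopper-Pearson interval 27.0 to 55.8%), against 15.7% of all protein-coding genes. In OE17-4 it was 26.5% (14.9 to 41.1%) against 9.22%, and in OE9-1 8.16% (2.27 to 19.6%) against 5.26%. The intervals cover counting error only. Without the 18 rows the counts were 19, 11 and 2 in OE3-1, OE17-4 and OE9-1, beside 15.7%, 9.2% and 5.25% of all genes.

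Chromatin genes are long, with a median of 5570 bp against 2080 bp for all protein-coding genes, and longer genes carried peaks more often. With all genes split by length into 10 classes of near equal size, the share with an OE3-1 peak was 2.59% in the shortest class and 38.4% in the longest, which held 35 of the 49 chromatin genes. Genes of the same length class carried peaks at a rate equal to 16.2 of 49 in OE3-1, 7.29 in OE17-4 and 5.18 in OE9-1. The 200 protein-coding genes nearest in length to each chromatin gene, a closer match for the longest genes, gave 18.4, 8.13 and 5.83 in the same order. Their rates of 37.6%, 16.6% and 11.9% lay inside the intervals of the chromatin genes. The rates of the length class, 33.1% in OE3-1 and 10.6% in OE9-1, did so too, and in OE17-4 the rate of 14.9% equalled the lower bound to 3 digits. Below, "like length" means the 200 nearest genes, and the length class is given where it differs in what it shows.

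**Figure D1:**
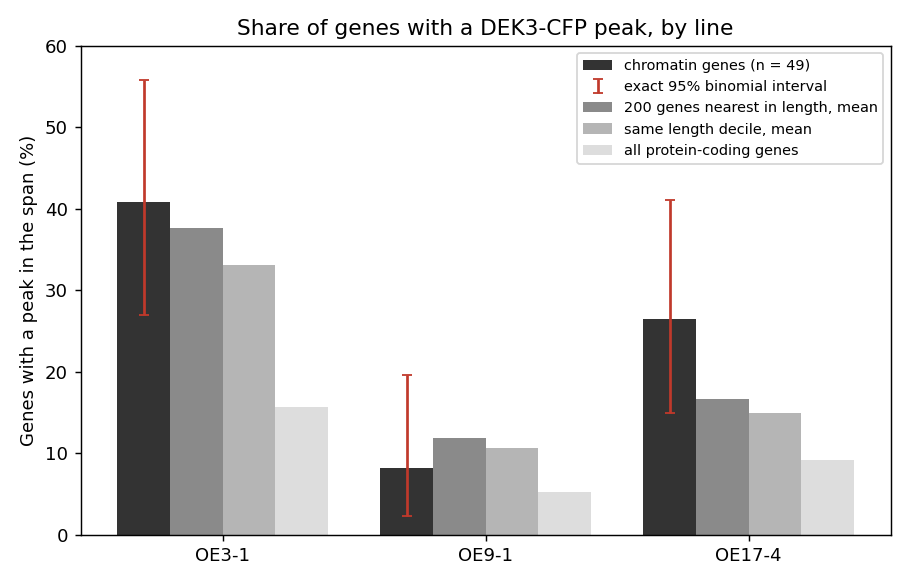
Share of genes with at least 1 peak in the gene span (y axis, %) in each overexpressor line (x axis), for the 49 chromatin genes, the mean of the 200 genes nearest in length to each, the mean of the same length class (decile), and all protein-coding genes. Red bars are exact 95% binomial intervals. In OE3-1 the chromatin genes stand at 40.8% beside 37.6% for genes of like length, and in OE17-4 at 26.5% beside 16.6%. In OE9-1 they stand at 8.16%, below genes of like length. Bars include the rows written with 3 dots. Without these the shares of chromatin genes are 38.8% in OE3-1, 22.4% in OE17-4 and 4.08% in OE9-1.

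In the longest class, 18 of 35 chromatin genes (51.4%) had an OE3-1 peak against 38.4% of all genes there. For OE17-4 it was 9 of 35 (25.7%) against 16.5%, and for OE9-1 4 of 35 (11.4%) against 12.3%. The class mixes genes from 4234 to 27265 bp. Per length, the 296 kb of the 49 gene spans held 10.5 OE3-1 peaks per 100 kb against 7.56 for all protein-coding genes. OE17-4 had 4.4 against 4.02 and OE9-1 1.35 against 2.29. Over the lines the densities were 5.42 ± 4.66 and 4.62 ± 2.69 peaks per 100 kb (SD, n = 3) for chromatin genes and all genes. Within a line the chromatin genes differed from all genes by 2.93 in OE3-1, 0.377 in OE17-4 and -0.935 in OE9-1. The mean of these differences was 0.79 ± 1.96 (SD, n = 3), so the sign was not the same in the 3 lines and the mean was smaller than their spread. Counts and densities in this paragraph include the rows written with 3 dots. These were 4 of the 31 peaks in chromatin genes in OE3-1, 2 of 13 in OE17-4 and 2 of 4 in OE9-1. The sizes and signs of the differences may depend on them.

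A peak in any line was found in 29 of the 49 genes (59.2%, against 26.8% of all genes, 47.9% of the same length class and 52.7% of genes of like length), and in 28 without the 18 rows. A single line accounted for 22 of the 29, 14 in OE3-1, 7 in OE17-4 and 1 in OE9-1, and for 24 of the 28 without the 18 rows. Peaks in at least 2 lines were present in 7 genes (14.3%, against 3.21% of all genes), where genes of like length gave 5.89 of 49 and the length class 4.79. They were RLT1, INO80, PIE1, MBD9, SDG8, SUVH4 and CMT3, with a median length of 8740 bp. RLT1 had peaks in all 3 lines, which 0.186% of all genes had. Genes of like length gave 0.645 of 49 and the length class 0.436. Without the 18 rows, 4 genes had peaks in at least 2 lines (3.19% of all genes), and these were RLT1, INO80, PIE1 and SUVH4. Here genes of like length gave 5.78 of 49 and the length class 4.72, both above the count of chromatin genes. No chromatin gene then had peaks in all 3 lines (0 of 49, upper limit of the exact 95% interval 7.25%).

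**Figure D2:**
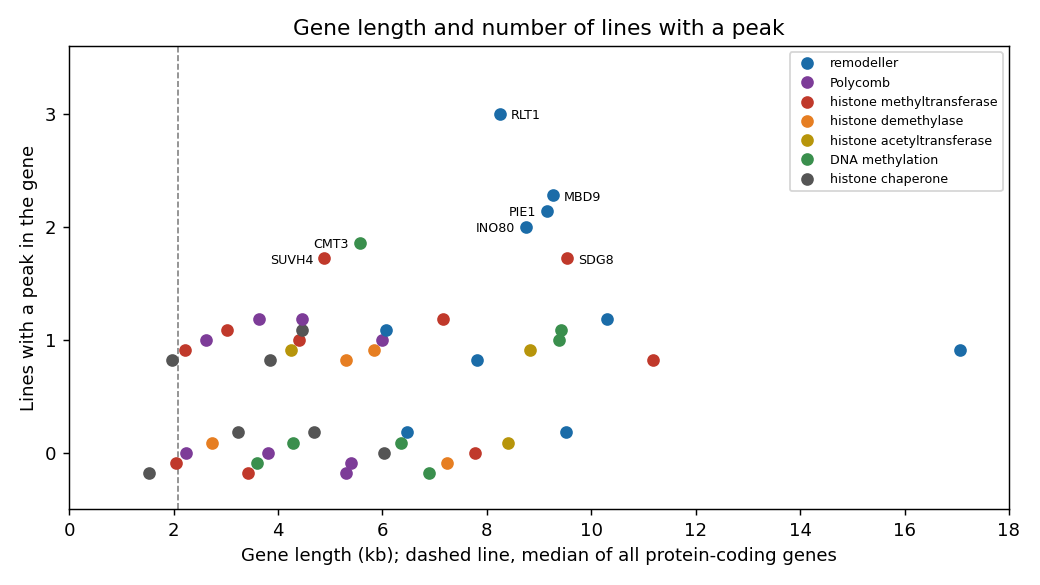
Gene length in kb (x axis) of each of the 49 chromatin genes against the number of lines with a peak in the gene (y axis, with points spread vertically within a level for display). Colours mark the class, and the dashed line is the median of all protein-coding genes. Genes with peaks in at least 2 lines are between 4889 and 9533 bp long, and genes without a peak reach 9523 bp.

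For the 7 genes with peaks in more than 1 line, 9 comparisons of a pair of lines were possible, and in 0 of them did peaks overlap. Over all protein-coding genes with peaks of a pair of lines, the nearest peaks overlapped in 96 of 982 cases (9.78%), and in 27 of 439 (6.15%) for genes over 4000 bp, so 0 of 9 is near the background. The nearest peaks of the pair lay 13 to 4234 bp apart, with a median of 1830 bp, beside 1440 bp for genes over 4000 bp. Gaps of at most 500 bp occurred in 2 of the 9, in RLT1 and in MBD9, against 37.1% of cases over all genes and 26.9% for genes over 4000 bp. Both rest on rows written with 3 dots.

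Among remodellers, 8 of 10 genes had a peak in some line, and 7 without the 18 rows, where genes of like length gave 6.9 and the length class 5.38. The class was assigned by hand and also holds RLT1, RLT2 and MBD9, described below as proteins that work with remodellers or are linked to them. DDM1, also a remodeller, is counted with DNA methylation below and had no peak. OE17-4 peaks lay in 6 of the 10 (PKL, RLT1, RLT2, INO80, PIE1 and MBD9), where genes of like length gave 2.16, and in 4 without the 18 rows. OE3-1 peaks lay in 5 against 5.29 (3.84 for the length class), and OE9-1 peaks in 2 against 1.59, or 1 without the 18 rows. This was the class with most genes in more than 1 line, 4 of 10 against 1.89 for like length, and 3 without the 18 rows. It also has the highest median length of the classes, 8950 bp.

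**Figure D3:**
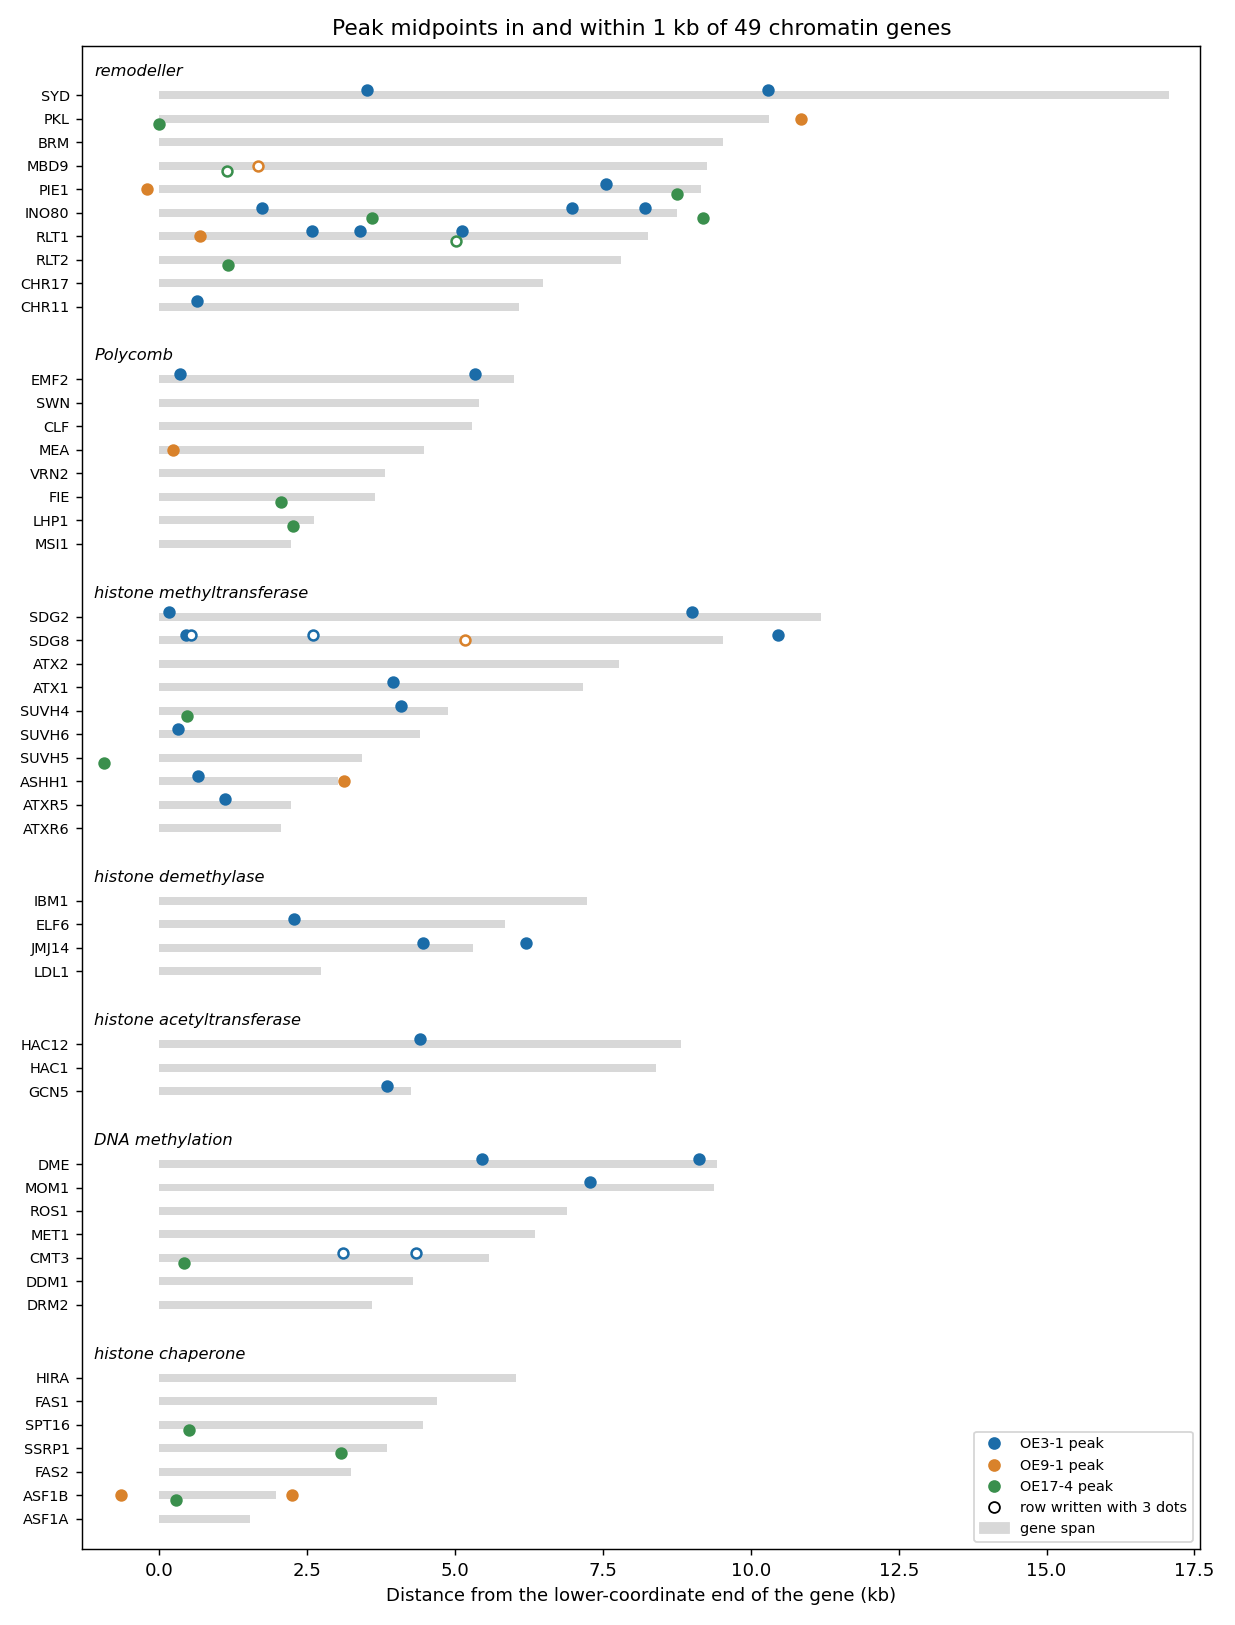
Peak midpoints along each of the 49 chromatin genes, to scale, as distance in kb from the end of the gene with the lower coordinate (x axis; the direction of transcription is not given in the table used). Grey bars are gene spans, filled circles are peaks in the gene or within 1 kb, and open circles are rows written with 3 dots. No peaks of different lines overlap in a gene, the nearest being 13 bp apart in RLT1, where the circles nearly touch at this scale.

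RLT1 (AT1G28420, listed as HB-1) encodes a homeodomain protein of the RINGLET type that works with ISWI remodellers. Its 3 OE3-1 peaks lay at chr1:9982053-9982082, chr1:9982852-9982892 and chr1:9984557-9984633 (TAIR10), with 269, 158 and 292 reads and FDRs of 0.12%, 2.21% and 0.48%. Its OE9-1 peak lay at chr1:9980120-9980225 with 189 reads and an FDR of 1.64%. Its OE17-4 peak lay at chr1:9984460-9984543 with 194 reads and an FDR of 3.409%, and it is a row written with 3 dots. The last OE3-1 peak and the OE17-4 peak were 13 bp apart, the closest approach of 2 lines in any of these genes. The OE9-1 peak lay near the lower end of the gene, 4234 bp from the OE17-4 peak.

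The related RLT2 (AT5G44180) had 1 peak, in OE17-4, at chr5:17783514-17783668 with 98 reads and an FDR of 2.76%. Of the ISWI ATPases, which space nucleosomes, CHR11 (AT3G06400) had 1 OE3-1 peak at chr3:1941488-1941591 with 173 reads and an FDR of 4.76%. Its close homologue CHR17 (AT5G18620) had none in any line, so 3 of the 4 ISWI and RINGLET genes carried a peak, where genes of like length gave 2.58. How reads that match both homologues were treated is not given in the sources used here.

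INO80 (AT3G57300), the ATPase of the INO80 remodelling complex, had 3 OE3-1 peaks. They lay at chr3:21200872-21200916, chr3:21206080-21206158 and chr3:21207338-21207385 with 189, 161 and 189 reads and FDRs of 4.42%, 2.98% and 1.34%. Its OE17-4 peak at chr3:21202683-21202816 had 120 reads and an FDR of 1.41%. A second OE17-4 peak lay 400 bp beyond the gene, in AT3G57310, with 135 reads. The nearest OE3-1 and OE17-4 peaks in INO80 were 1766 bp apart.

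PIE1 (AT3G12810), the ATPase of the SWR1 complex that exchanges the histone variant H2A.Z into nucleosomes, carried the member peak of lowest FDR in any list. This OE17-4 peak at chr3:4073733-4073868 had 172 reads, 94 forward and 78 reverse, and an FDR of 2.07e-04%, which placed it at percentile 1.02 of its list. It also overlapped the neighbour AT3G12820. The OE3-1 peak at chr3:4072579-4072613 had 294 reads, an FDR of 1.19% and unequal strands, with 192 forward and 102 reverse reads. An OE9-1 peak with 144 reads lay 170 bp outside the gene, in AT3G12800. With 1 kb on both sides PIE1 and RLT1 were thus the 2 genes with peaks of all 3 lines, which 0.427% of all genes had. For this, genes of like length gave 0.92 of 49. The OE17-4 peak of RLT1 is a row written with 3 dots. Without such rows PIE1 alone had peaks of all 3 lines within 1 kb.

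MBD9 (AT3G01460), a methyl-CpG-binding domain protein linked to H2A.Z deposition, had peaks in OE9-1 and OE17-4, and both are rows written with 3 dots. The OE9-1 row at chr3:174799-174904 had 306 reads, 153 on each strand, and an FDR of 2.078%. The OE17-4 row at chr3:174286-174399 had 111 reads and an FDR of 4.752%, with a gap of 399 bp to the former. Without these rows MBD9 had no peak, and in OE3-1, where it had none either way, 55.0% of genes of like length had one.

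PKL (AT2G25170), a CHD3-type remodeller that represses embryonic genes in seedlings, had an OE17-4 peak across its lower end at chr2:10713767-10713847. It held 105 reads at an FDR of 0.31% and also overlapped the neighbour AT2G25169, which the authors' gene column names. An OE9-1 peak with 248 reads lay 515 bp beyond the other end, in AT2G25180. The SWI/SNF ATPases differed, since SYD (AT2G28290) had OE3-1 peaks at chr2:12059669-12059765 and chr2:12066484-12066526 with 250 and 183 reads, and BRM (AT2G46020) had none. BRM was the longest gene of the list without a peak, with 9523 bp.

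Polycomb genes had peaks in 4 of 8 cases, each in a single line, against 3.54 for like length. OE3-1 peaks lay in 1 of the 8, where genes of like length gave 2.25. EMF2 (AT5G51230), a zinc finger subunit of PRC2, had OE3-1 peaks near its ends, at chr5:20823954-20824027 and chr5:20828951-20828999. They held 214 and 178 reads at FDRs of 2.56% and 3.49%. MEA (AT1G02580), the PRC2 methyltransferase of the endosperm, was the 1 gene with a peak in OE9-1 alone, at chr1:544914-545012 with 158 reads and an FDR of 4.92%. That FDR is at percentile 98.5 of the OE9-1 list.

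FIE (AT3G20740), a WD40 subunit of PRC2, had an OE17-4 peak at chr3:7250817-7250933 with 145 reads and an FDR of 1.76%. LHP1 (AT5G17690, listed as TFL2), which binds the Polycomb mark, had an OE17-4 peak at chr5:5829346-5829448. It held 178 reads, 68 forward and 110 reverse, at an FDR of 0.17%. The PRC2 methyltransferases active in seedlings, CLF (AT2G23380) and SWN (AT4G02020), had no peak in any line, and nor did VRN2 (AT4G16845) and MSI1 (AT5G58230). Of the 7 PRC2 genes, 3 carried a peak, 1 in each line, where genes of like length gave 3.27.

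Histone methyltransferase genes had OE3-1 peaks in 7 of 10 cases, where genes of like length gave 3.57. OE9-1 and OE17-4 had a peak in 1 of 10 each, against 0.985 and 1.49. Without the 18 rows the counts were 7 in OE3-1, 0 in OE9-1 and 1 in OE17-4. SDG8 (AT1G77300, listed as EFS), which methylates H3K36 on active genes, had 3 OE3-1 peaks and 1 OE9-1 peak. The peak at chr1:29040356-29040378 spanned 23 bp and had 473 reads at an FDR of 0.15%, and the authors' gene column gives it to the neighbour AT1G77290. Only 3 bp away lay a row written with 3 dots, chr1:29040382-29040523, with 657 reads and an FDR of 0.938%. Whether the same reads count in both is not given in the sources used here.

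The other rows of SDG8 are also written with 3 dots. In OE3-1 it was chr1:29042452-29042586, with 300 reads and an FDR of 8.933%, the highest of any list. In OE9-1 it was chr1:29045065-29045121, with 296 reads and an FDR of 3.899%. Neither has a Wilcoxon filter p-value. Without these rows SDG8 kept the 23 bp peak in OE3-1 and had none in OE9-1. ASHH1 (AT1G76710), another H3K36 methyltransferase, had an OE3-1 peak at chr1:28790320-28790381 with 202 reads and an OE9-1 peak 75 bp outside the gene with 200 reads.

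The H3K9 methyltransferases SUVH4, SUVH5 and SUVH6 maintain heterochromatin together with DNA methylation. SUVH4 (AT5G13960) had an OE3-1 peak at chr5:4505435-4505474 with 190 reads and an FDR of 2.62%. Its OE17-4 peak at chr5:4501757-4501899 had 156 reads and an FDR of 2.19%. These peaks lay near opposite ends of the gene, 3535 bp apart. SUVH6 (AT2G22740) had an OE3-1 peak at chr2:9662924-9662991 with 299 reads, 102 forward and 197 reverse. Its FDR of 0.05%, at percentile 1.93, was the lowest of the OE3-1 peaks in these genes, and the peak also overlapped the neighbour AT2G22730. SUVH5 (AT2G35160) had no peak in its span and 1 OE17-4 peak 848 bp away, in AT2G35155, with 144 reads and an FDR of 0.04%.

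The trithorax-type H3K4 methyltransferase genes had peaks in OE3-1 alone, in 2 of 3, where genes of like length gave 1.6. SDG2 (AT4G15180) had them at chr4:8651502-8651651 and chr4:8660392-8660436 with 147 and 215 reads, the first close to an end of the gene and the second 2173 bp from the other end. ATX1 (AT2G31650) had 1 at chr2:13459181-13459257 with 174 reads and an FDR of 3.68%, and its homologue ATX2 (AT1G05830) had none. ATXR5 (AT5G09790), which places a replication-linked methyl mark on H3K27, had an OE3-1 peak at chr5:3040038-3040147 in the middle of the gene, with 190 reads. ATXR6 (AT5G24330), which acts redundantly with it, had none.

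Histone demethylase genes had OE3-1 peaks in 2 of 4, against 1.39 for like length, and none of the other lines. ELF6 (AT5G04240), a Jumonji demethylase of H3K27, had 1 at chr5:1171404-1171472 with 162 reads and an FDR of 3.14%. JMJ14 (AT4G20400), an H3K4 demethylase, had 1 at chr4:11012968-11013070 with 174 reads and an FDR of 4.69%, and another 864 bp outside the gene with 230 reads. IBM1 (AT3G07610), which removes H3K9 methylation from genes, and LDL1 (AT1G62830) had none. Histone acetyltransferase genes also had OE3-1 peaks only, in 2 of 3 against 1.30 for like length. HAC12 (AT1G16710) had 1 in its middle at chr1:5718149-5718242 with 502 reads, an FDR of 0.79% and a Wilcoxon filter p-value of 0.09. GCN5 (AT3G54610, listed as HAG1), the catalytic subunit of SAGA-type complexes, had 1 at chr3:20217214-20217283 with 207 reads and an FDR of 3.63%, and HAC1 (AT1G79000) had none.

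DNA methylation genes had a peak in 3 of 7 cases, against 3.94 for like length. CMT3 (AT1G69770), the chromomethylase that maintains non-CG methylation, had OE3-1 rows at chr1:26251159-26251273 and chr1:26252437-26252493. They held 271 and 259 reads at FDRs of 1.079% and 6.176%, and both are written with 3 dots. Its OE17-4 peak at chr1:26248479-26248595 had 133 reads, 86 forward and 47 reverse, at an FDR of 4.32%. Without the 18 rows CMT3 had a peak in OE17-4 alone.

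DME (AT5G04560), a DNA glycosylase that demethylates DNA in the central cell, had OE3-1 peaks at chr5:1314541-1314582 and chr5:1318190-1318246 with 253 and 157 reads and FDRs of 2.44% and 1.32%. MOM1 (AT1G08060, listed as MOM), which keeps methylated repeats silent, had an OE3-1 peak at chr1:2508958-2509002 with 205 reads and an FDR of 0.94%. The maintenance methyltransferase MET1 (AT5G49160), the de novo methyltransferase DRM2 (AT5G14620), the remodeller DDM1 (AT5G66750) and the glycosylase ROS1 (AT2G36490) had no peak in any line. Of genes as long as MET1, 45.5% had an OE3-1 peak.

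Histone chaperone genes had peaks in OE17-4 alone, in 3 of 7 against 0.855 for like length. OE3-1 had 0 of 7 against 1.75 and OE9-1 0 of 7 against 0.675. Both subunits of FACT, the complex that opens nucleosomes for polymerases, were among them, where genes of like length gave 0.245 of 2. SSRP1 (AT3G28730, listed as HMG) had a peak at chr3:10787904-10788028 with 285 reads, 137 forward and 148 reverse, at an FDR of 0.00912% and percentile 5.28 of the list. SPT16 (AT4G10710) had one at chr4:6602336-6602466 with 212 reads, 124 forward and 88 reverse, at an FDR of 0.13%.

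ASF1B (AT5G38110), a chaperone of newly made H3 and H4, had an OE17-4 peak at chr5:15208508-15208763. It was the widest peak in any of these genes with 256 bp, had 69 reads, the fewest, and an FDR of 4.84%. It was flanked by OE9-1 peaks 597 bp before and 227 bp after the gene, with 150 and 216 reads. ASF1A (AT1G66740), HIRA (AT3G44530) and all 3 genes of the replication-linked chaperone CAF-1 (FAS1, FAS2 and MSI1) had no peak. For the CAF-1 genes, those of like length gave 1.2 of 3 with a peak in any line. No 3-dot row lay in a histone chaperone gene, so these counts are the same without the 18 rows.

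Among the 20 genes without a peak, lengths ran from 1537 to 9523 bp, with a median of 5000 bp against 6000 bp for the 29 with one. The longest were BRM, HAC1 with 8399 bp, ATX2 with 7780 bp, IBM1 with 7230 bp and ROS1 with 6901 bp. For their lengths, OE3-1 peaks were found in 56.5%, 52.0%, 48.5%, 48.0% and 47.5% of other genes in the same order. Absence of a peak from these lists is not absence of binding, since depth is unknown.

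With 1 kb on both sides, peaks were counted at 20 genes for OE3-1, 14 for OE17-4 and 8 for OE9-1, beside 22.5%, 13.9% and 12.2% of all genes. Genes of like length gave 21.2, 10.4 and 8.68 of 49 in the same order, and the length class 19.1, 9.55 and 8.09. Any line then had a peak at 30 genes (41.0% of all genes), and at least 2 lines at 10 (7.2%). For these, genes of like length gave 30.4 and 8.96 of 49, and the length class 28.6 and 7.54. In OE3-1 and in any line the count thus lay below genes of like length and above the length class. Genes with a peak in the span could not enter the next counts, in OE3-1 40.8% of chromatin genes against 15.7% of all genes. Genes with a peak beside them but none in the span numbered 0 of 49 in OE3-1, against 6.84% of all genes. They numbered 4 of 49 in OE9-1 (8.16%, exact 95% interval 2.27 to 19.6%) against 6.95%, and 1 of 49 in OE17-4 against 4.67%. The 4 of OE9-1 were PKL, PIE1, ASHH1 and ASF1B, and the 1 of OE17-4 was SUVH5. Of these 5 genes, 3 had the peak inside a neighbouring gene.

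In OE3-1 and OE17-4, peaks in chromatin genes had a median of reads near that of the list. Their median FDR was near that of the list in OE3-1 and above it in OE17-4. The 31 OE3-1 peaks had 147 to 657 reads with a median of 205, beside 210 for the list. Their median FDR was 2.21% beside 2.35%, and 16 of 31 were in the upper 50% of the list by FDR (50.1% of the list with ties). The 13 OE17-4 peaks had 69 to 285 reads with a median of 145 beside 136. Their median FDR was 1.76% beside 1.08%, and 5 of 13 were in the upper 50% (50% of the list). Of the 13, 2 were rows written with 3 dots, at percentiles 84.4 and 97.4. The 4 OE9-1 peaks had 158 to 306 reads with a median of 242 beside 202. Their median FDR was 2.99% beside 2.73%, and 2 of them were in the upper 50% (50.2% of the list).

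**Figure D4:**
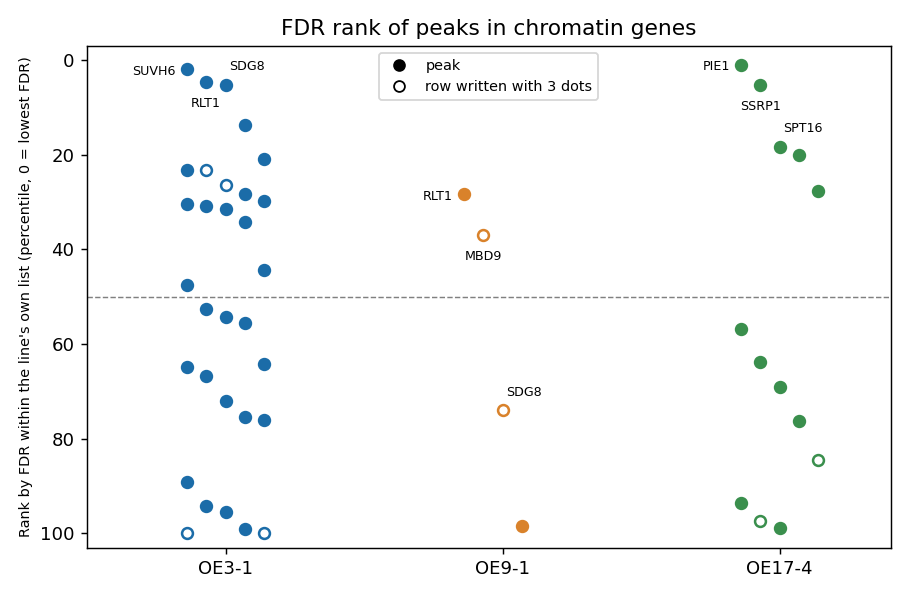
Rank of each peak in a chromatin gene by FDR within its own line's list, as a percentile (y axis, lowest FDR at the top), for OE3-1, OE9-1 and OE17-4 (x axis). The 3 lowest of each line are named, open circles are rows written with 3 dots, and the dashed line is the middle of the list. Points spread over the whole range in OE3-1, and PIE1 and SSRP1 lead in OE17-4 at percentiles 1.02 and 5.28.

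An FDR of at most 1% was reached by 7 of 31 OE3-1 peaks (25.0% of the list), 5 of 13 OE17-4 peaks (48.6%) and 0 of 4 OE9-1 peaks (16.6%). Forward and reverse reads were unequal, by an exact 95% interval of the forward share that leaves out 50%, in 13 of 31 OE3-1 peaks (40.6% of the list). The same held for 4 of 13 OE17-4 peaks (10.2%) and 0 of 4 OE9-1 peaks (25.7%). The OE17-4 peaks with unequal strands were those of CMT3, LHP1, SPT16 and SUVH4. In OE3-1 the forward share lay farthest from 50% in DME, CHR11 and SUVH6, at 67.2%, 65.9% and 34.1%.

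Several peaks in 1 gene occurred in OE3-1 alone, in 8 genes (2.06% of all genes), where genes of like length gave 4.64. In OE9-1 and OE17-4 there were 0 such genes, against 0.186% and 0.357% of all genes, and 0.42 and 0.585 for like length. Without the 18 rows 6 genes had several OE3-1 peaks, since CMT3 and SDG8 dropped out. The 8 genes were RLT1, INO80 and SDG8 with 3 each, and CMT3, DME, EMF2, SDG2 and SYD with 2 each. Neighbouring peaks within a gene were 3 to 8740 bp apart, the closest in SDG8 and the farthest in SDG2. Position along the gene was compared with other long genes, over 4000 bp, of which there are 3248, 35 of them chromatin genes. Of the 29 OE3-1 peaks in those 35, 17 had their midpoint over 1000 bp from both ends, 58.6% beside 61.6% for all long genes. For OE17-4 it was 4 of 9 beside 52.4%, and for OE9-1 2 of 4 beside 57.4%. Within 500 bp of an end lay 5 of 9 OE17-4 midpoints (30.8% in all long genes), 6 of 29 for OE3-1 (18.4%) and 1 of 4 for OE9-1 (26.0%). The OE17-4 peaks near an end were those of PKL, SUVH4, SPT16, CMT3 and PIE1.

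A second list of 73 other genes of the same pathways was counted in the same way. OE3-1 peaks lay in 25 of the 73 (34.2%), OE17-4 peaks in 11 (15.1%) and OE9-1 peaks in 6 (8.22%), where genes of the same length class gave 21.0, 9.84 and 6.66. A peak in any line was found in 35 (47.9%), against 31.6 for the length class and 26.8% of all genes, and in at least 2 lines in 7, against 5.48 for the length class. None had peaks in all 3 lines. Histone methyltransferase genes of this list had OE3-1 peaks in 6 of 13 and OE17-4 peaks in 0 of 13, where genes of like length gave 3.94 and 1.88. Histone demethylase genes had OE3-1 peaks in 3 of 6 and OE17-4 peaks in 2 of 6, against 1.86 and 0.895. For histone acetyltransferase genes it was 3 of 9 and 0 of 9, against 3.19 and 1.45. Histone chaperone genes had OE3-1 peaks in 1 of 11 and OE17-4 peaks in 3 of 11, against 2.92 and 1.33. Remodeller genes had OE3-1 peaks in 6 of 13 and OE17-4 peaks in 2 of 13, against 3.86 and 1.75. For Polycomb genes it was 2 of 8 in each of these lines, against 2.12 and 0.885. DNA methylation genes gave 4 of 13 and 2 of 13, against 4.12 and 1.97. OE9-1 peaks lay in 2 DNA methylation genes and in 1 remodeller, methyltransferase, acetyltransferase and chaperone gene each. Polycomb and demethylase genes had none, and genes of like length gave 0.575 to 1.41 per class in OE9-1.

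The 7 genes with peaks in at least 2 lines were the remodeller genes CHR12, CHR4 and SWI3D, the Polycomb E3 ligase gene RING1A, the H3K27 demethylase gene REF6, the glycosylase gene DML2 and DMS3, a gene of RNA-directed DNA methylation. In SWI3D (AT4G34430), a SWI/SNF core subunit, the peaks overlapped. The OE3-1 peak at chr4:16464860-16464890 with 181 reads and an FDR of 2.91% lay inside the OE9-1 peak at chr4:16464842-16464943 with 272 reads and an FDR of 4.88%. REF6 (AT3G48430) had an OE17-4 peak with 142 reads and an FDR of 0.38% and an OE3-1 peak with 182 reads and an FDR of 4.78%, without overlap.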

How the data were processed

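Each ChIP library came as 1 list of peaks on build TAIR10, per the submitters' processing notes. How reads were aligned, peaks called and inputs used is not stated in the labels or headers. Read counts per peak are the authors' raw counts, and FDR in percent, the strand difference as a fraction and the Wilcoxon filter p-value are theirs too, per the file headers. Reads were 36 bp, single-end, per the labels. Repeated regions (1, 2 and 2 in OE3-1, OE9-1 and OE17-4) were dropped. Peak widths were taken from start and end.

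Gene spans and names came from the RefSeq table of assembly TAIR10.1, which holds no strand and no sequence; none of its coordinates are printed. Sequences were not used here. The length class was the main reference for length and the 200 nearest genes an alternative. Overlaps and references were computed in Python 3.11.15 (pandas 2.3.3, scipy 1.17.1) and tested on simulated data. All counts are descriptions with no test, since there is 1 library per line. The genes and lists were chosen with earlier results of these data known. Described in full were genes with peaks in at least 2 lines, the 5 peaks of lowest FDR per line and the 5 longest genes without a peak; the other genes with a peak were given more briefly, beyond that rule, after their values were seen.
The classes and complexes were assigned by hand. Alternatives changed the gene span, the peak limits, the rows used and the lines used.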

Additional observations from a re-analysis of the deposited data

How the results depend on the processing

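Of 60 values recomputed under an alternative, 30 stayed within 1.5 times the reported one or within 1 SD of it, and 30 moved further. In the upper 50% of each list by FDR, the counts were 12 for OE3-1, 2 for OE9-1, 5 for OE17-4, 17 in any line, 2 in at least 2 lines and 0 in all 3, beside 8.49%, 2.54%, 4.84%, 14.9%, 0.919% and 0.0328% of all genes. At an FDR of at most 1% they numbered 5, 0, 5, 10, 0 and 0 in that order, beside 4.42%, 0.806%, 4.71%, 9.59%, 0.339% and 0.00365%. At a Wilcoxon filter p-value of at most 9.99e-05 they numbered 8, 0, 12, 19, 1 and 0, beside 3.89%, 0.642%, 9.21%, 13.2%, 0.55% and 0% of all genes. At this common limit more chromatin genes had a peak in OE17-4 than in OE3-1. The limit hardly changed the OE17-4 list, with 2527 of all genes called against 2528 without it. In OE3-1 it left 1067 of 4301 and in OE9-1 176 of 1444. The FDR limits keep fewer peaks of each list by construction, and the Wilcoxon limit does so mainly in OE3-1 and OE9-1. With 1 kb on both sides, 8 genes had an OE9-1 peak and 2 had peaks in all 3 lines, beside 12.2% and 0.427% of all genes. Genes of like length gave 8.68 and 0.92 of 49. The 2 genes with peaks in all 3 lines were RLT1 and PIE1, and without rows written with 3 dots PIE1 alone remained. By the authors' gene column the counts were 9 and 2, beside 10.4% and 0.277%, and that column also names genes for peaks outside their spans. Without the rows written with 3 dots the counts were 2 in OE9-1, 4 in at least 2 lines and 0 in all 3, where genes of like length gave 5.65, 5.78 and 0.505. Without the 4 genes that hold them, an alternative chosen after seeing the data, they were 1, 3 and 0. Leaving out each line in turn gave 15 to 28 genes with a peak in any line, 2 to 5 in at least 2 lines and a mean per line of 8.5 to 16.5. Without OE3-1 the count in any line was 15, and without OE3-1 or without OE17-4 the count in at least 2 lines was 2, since fewer lines were counted. A count with the peak midpoint inside the gene was the same as the reported one for each result. No paired analysis was possible because the inputs that share replicate numbers with the ChIP samples were not analysed here. Depth is unknown, so a gene without a peak may be bound below the limit of its list.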
